A study of Mus musculus with 24 samples.

Results

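Spleens of BALB.K mice given 400 cGy of total body irradiation were compared with spleens of BALB.K mice given 300 cGy, the smallest step between irradiated groups in this series. The 6 arrays compared were all those labelled with the 2 doses in this strain, 3 at 400 cGy and 3 at 300 cGy, out of 24 arrays in the series. The other 18 arrays held BALB.K at 0 and 800 cGy and B10.BR at 0, 300, 500 and 900 cGy, with 3 arrays per group, and entered the model only through the estimate of spread or where they are named. Each array carried Cy3-labelled total RNA from whole spleen cells pooled from 3 mice. Irradiated mice were sampled 24 hours after exposure in an X-ray irradiator, and unirradiated mice were sampled at rest. Both strains are inbred and no allele, agent or transplant is named in the labels of any group, nor are age and sex. The labels do not say that pools came from separate irradiations, so that the p-values measure the spread between pools.

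Resting B and T lymphocytes are among the most radiosensitive cells of the body and are lost from the spleen within a day of exposure, through p53-dependent apoptosis. The mouse spleen also makes red cells, and erythroid precursors and other dividing cells are depleted by low doses. Macrophages and stromal cells are more resistant. A lower share of a cell type and less RNA per cell cannot be told apart in such RNA.

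Between 40556 and 42834 of 55681 probes were well above background on the 400 cGy arrays, against 39044 to 41090 on the 300 cGy arrays, and the upper-quartile signal was 867 to 965 against 883 to 1192 intensity units. By the array position in the name of each scan, taken here as slide and row, all 3 of the 400 cGy arrays lay in row 1 of slide 3. At 300 cGy, replicate 1 lay on slide 2, replicate 2 in row 1 of slide 3 and replicate 3 in row 2 of slide 3. Ddx3y, carried on the Y chromosome, was above background on replicate 1 of each dose and on no other of the 6 arrays. Exocrine pancreas genes, markers of tissue that lies next to the spleen, held 0.245%, 0.00469% and 0.00288% of the summed signal at 400 cGy, against 1.11%, 0.236% and 0.0336% at 300 cGy. All 25 of them had a change below 0 (median -4.34) and 0 passed (limma, 12 at an unadjusted p under 0.05). With their level as a covariate 572 features passed in the comparison below, against 1410 without it. The spleen markers Cr2, Cd3e, Cd68 and S100a8 were above background on all 6 arrays.

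Between 300 and 400 cGy a small part of the features passed in the main model, a count that ranged from 0 to 5167 under other settings. Many genes of B cells, of T cells and of sterol synthesis and single genes of red cell precursors and matrix were lower at 400 cGy, and some genes of fatty acid use were higher. Of 29521 features tested, 1410 (4.78%) passed at an adjusted p of 0.05 in limma, 936 higher (3.17%) and 474 lower (1.61%). Of these, 277 rose and 19 fell by at least 2-fold. A level below is a log2 signal relative to the array's 75th percentile, and a change is the log2 difference of the mean levels, 400 minus 300 cGy, ± its standard error. All 3 of the 400 cGy arrays lay above all 3 of the 300 cGy arrays for 5476 features (18.5%) and below them for 2863 (9.7%). At an unadjusted p under 0.05, 4130 features were higher (14%) and 2194 lower (7.43%), the background for the counts at that level given below. The median change of all features was 0.063.

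The direction of the calls went with the strength of the signal. The features that rose had a median level of -3.50 over the 24 arrays and those that fell 1.69. At or below a level of -2, 684 features rose and 42 fell, and above it 252 rose (1.61% of 15623) and 432 fell (2.77%). The median change was 0.39 at levels below -6, 0.28 from -6 to -4 and 0.17 from -4 to -2. It was -0.029 from 0 to 2 and -0.060 above 4. More probes were above background at 400 cGy on 2 of the 3 arrays than on any 300 cGy array, and the part of this in the rises of dim features was not tested.

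**Figure D1:**
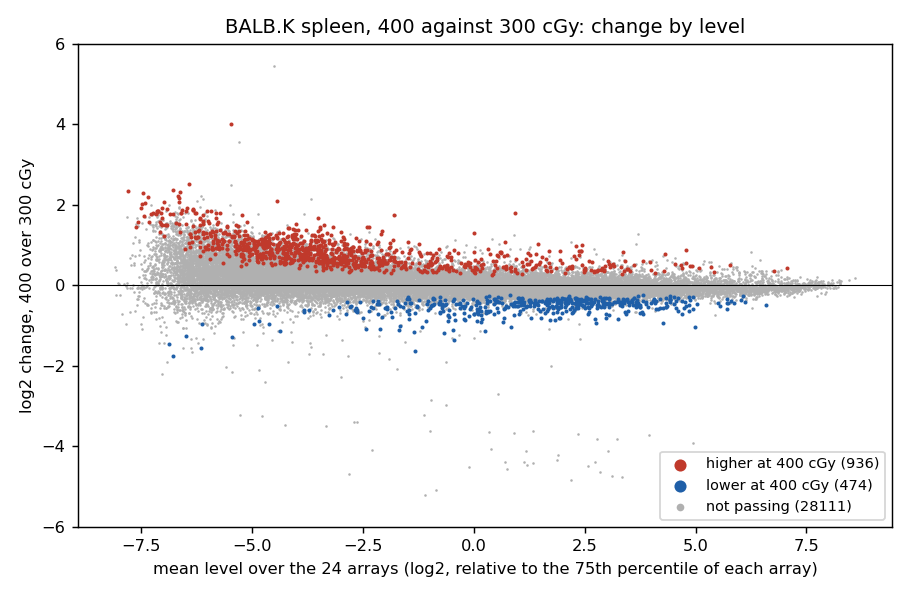
Log2 change (400 over 300 cGy, y axis) against mean level over the 24 arrays (x axis, log2 relative to each array's 75th percentile), 1 point per feature. Red points (936) rose and lie mostly at low levels, blue points (474) fell and lie mostly at higher levels, and the grey points near -4 include the exocrine pancreas genes, which did not pass.

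The split between rises and falls moved with the scaling of the arrays. Rises were 66.4% of the calls with the 75th percentile, 11.6% with median scaling (600 rose and 4567 fell), 47.3% with quantile normalization (504 and 561), 98.6% with spike-in scaling (652 and 9) and 41.5% with cyclic loess (321 and 453). Median scaling moved the median of all features to -0.15 and spike-in scaling to 0.21, so that the changes of single genes are best read against those shifts. With slide as a block 1379 rose and 797 fell, and within slide 3 alone, with 3 arrays at 400 cGy and 2 at 300 cGy, 3059 rose and 1038 fell. The calls rest on the spread shared by all 24 arrays. With only the 6 arrays in the fit 2 features passed, neither of them called in the model of 24. In the model of 24, 6324 features had an unadjusted p under 0.05.

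**Figure D2:**
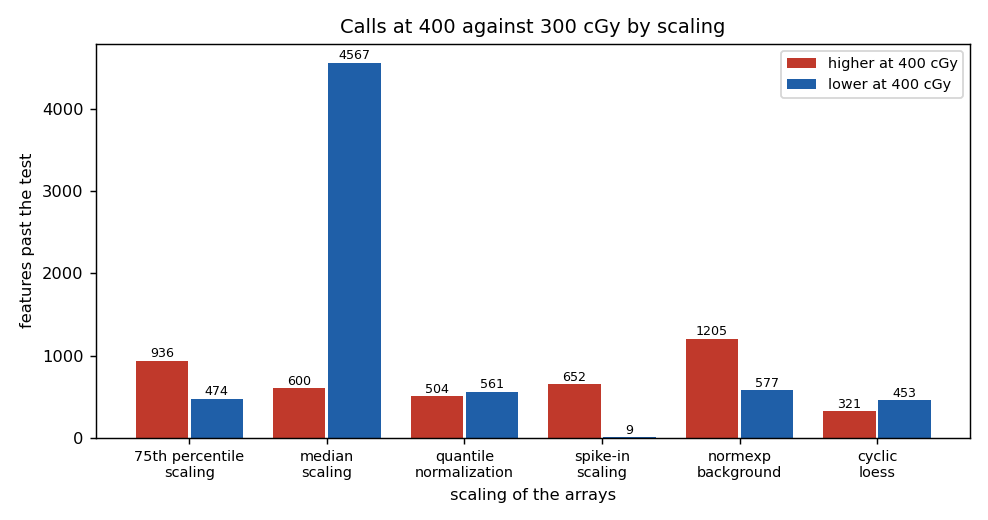
Number of features that passed (y axis) under 6 ways of scaling the arrays (x axis), higher at 400 cGy in red and lower in blue. Median scaling gives mostly falls (4567) and spike-in scaling mostly rises (652).

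B cell genes fell as a group. Of the 26 in the B cell list 19 fell and 0 rose, against 1.61% of all features that fell, and the median change of the 26 was -0.61. At an unadjusted p under 0.05 there were 0 higher and 21 lower. Cr2, the complement receptor of mature follicular and marginal zone B cells, had levels of 4.83, 5.06 and 5.01 at 400 cGy, against 5.80, 6.21 and 6.03 at 300 cGy. All 3 of the 400 cGy arrays lay below all 3 of the 300 cGy arrays (-1.04 ± 0.10, adjusted p = 3.9e-05). A second Cr2 probe gave -1.09 ± 0.15.

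Tnfrsf13c encodes the receptor for the survival factor BAFF, on which mature B cells depend. Its levels were 1.87, 2.12 and 2.11 at 400 cGy, against 2.88, 3.01 and 3.00 at 300 cGy (-0.92 ± 0.11, adjusted p = 4.19e-04). The groups did not overlap, and the other probe of the gene gave -0.41 ± 0.19, which did not pass. Ebf1, a transcription factor that specifies the B lineage, was at -0.51, -0.42 and -0.48 at 400 cGy, against 0.50, 0.42 and 0.40 at 300 cGy. The doses were apart, and Ebf1 fell by 0.91 ± 0.10 (adjusted p = 1.95e-04).

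Fcer2a, the low-affinity IgE receptor of follicular B cells, fell by 0.87 ± 0.18 (adjusted p = 0.0137). Pax5, the factor that maintains B cell identity, was at -1.86, -1.79 and -2.01 at 400 cGy, against -0.98, -1.01 and -1.18 at 300 cGy. Its change was -0.83 ± 0.17 (adjusted p = 0.0141), but a second Pax5 probe gave -0.13 ± 0.14 and did not pass. Replicate 1 was the lowest array of each dose for Cr2. Other members that fell were Vpreb3 (-0.84), Cd40 (-0.81), Spib (-0.71), Cxcr5 (-0.71), Ms4a1 (-0.70), which encodes CD20, and Cd79b (-0.59) of the antigen receptor.

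Cd79a, the partner of Cd79b, did not pass (-0.40 ± 0.15, adjusted p = 0.128), and neither did Cd22 (-0.03) or Pou2af1 (0.02). The B cell genes together held 0.171% to 0.192% of the summed signal at 400 cGy, against 0.226% to 0.257% at 300 cGy. The plasma cell list, the antibody-secreting stage, had 0 of 15 genes that passed in limma, 0 at an unadjusted p under 0.05 and a median of -0.04.

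T cell genes fell too, with smaller changes. Of the 27 in the T cell list 13 fell and 0 rose, and the median of the 27 was -0.43, with 0 higher and 20 lower at an unadjusted p under 0.05. Cd8a, a chain of the co-receptor of cytotoxic T cells, was at -0.04, -0.06 and -0.06 at 400 cGy, against 0.41, 0.67 and 0.66 at 300 cGy (-0.63 ± 0.084, adjusted p = 8.97e-04). Cd8b1, the partner chain, was at -0.88, -1.0 and -1.04 at 400 cGy, against -0.49, 0.04 and -0.29 at 300 cGy (-0.73 ± 0.13, adjusted p = 0.00706). The groups did not overlap for either chain.

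Lef1 and Tcf7 encode related transcription factors of naive T cells, and fell by 0.73 and 0.52. Cd2, an adhesion molecule of T cells, was at 2.65, 2.82 and 2.78 at 400 cGy, against 3.29, 3.44 and 3.47 at 300 cGy (-0.65 ± 0.10, adjusted p = 0.00311). Cd3e of the T cell receptor complex was at 1.79, 1.83 and 1.75 at 400 cGy, against 2.06, 1.82 and 2.31 at 300 cGy, and the groups overlapped (-0.27 ± 0.11, adjusted p = 0.144). Cd4, the co-receptor of helper T cells, had a change of 0.01 ± 0.10. The regulatory T cell list had 0 of 15 genes that passed (2 higher and 0 lower at an unadjusted p under 0.05, median -0.05), and its transcription factor Foxp3 was at -0.10 ± 0.097.

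**Figure D3:**
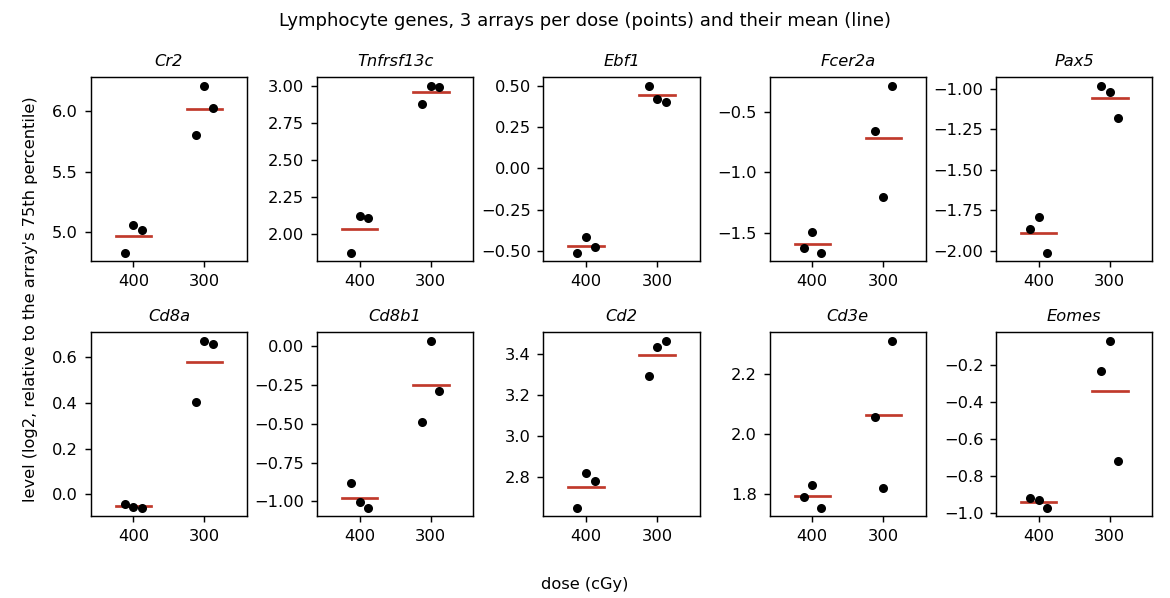
Levels of 10 lymphocyte genes (y axis, log2 relative to the array's 75th percentile) on the 3 arrays at 400 cGy and the 3 at 300 cGy (x axis), with points for arrays and lines for means. The doses are apart for 9 genes and overlap for Cd3e, whose 300 cGy arrays range from 1.82 to 2.31.

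Of 21 NK and cytotoxic cell genes 0 rose and 4 fell (median -0.29, with 0 higher and 9 lower at an unadjusted p under 0.05). The 4 were Eomes (-0.60 ± 0.13, adjusted p = 0.0173), a T-box factor of NK cells and CD8 memory cells, the granule protease Gzma (-0.58 ± 0.14), the cytokine Ifng (-0.48 ± 0.13) and the lectin receptor Klrd1 (-0.33 ± 0.092). The pore-forming protein gene Prf1 did not pass (-0.19 ± 0.18). The count of falls in this list was 0 with spike-in scaling, the deposited matrix, only the 12 BALB.K arrays, the arrays that lack Y-linked signal, or without replicate 2 at 300 cGy or 2 or 3 at 400 cGy, 1 without replicate 3 at 300 cGy or 1 at 400 cGy, 7 without replicate 1 at 300 cGy and 12 with median scaling. Of 22 antigen presentation genes 0 rose and 4 fell, all of class II: H2-Ob (-0.84 ± 0.17, adjusted p = 0.0148) and H2-Oa (-0.51 ± 0.10), which encode the B cell modulator of peptide loading, and H2-Ab1 (-0.40 ± 0.095) and H2-DMb1 (-0.39 ± 0.10). The median of that list was -0.09, which turned to 0.058 with spike-in scaling, and its count was 0 there and without replicate 3 at 300 cGy or 1 at 400 cGy, 1 or 2 without replicate 2 at 300 cGy or 2 or 3 at 400 cGy, and 10 with median scaling. Of 20 dendritic cell genes 2 fell, Ly6d (-0.64 ± 0.17) and Cd209a (-0.58 ± 0.13), and neither call remained when any single array other than replicate 1 at 300 cGy was left out. A second Cd209a probe did not pass (-0.49 ± 0.26).

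The falls of B and T cell genes were also found at the neighbouring steps, which share arrays with this one. At 300 against 0 cGy, where 26% of all features fell, 20 of the 26 B cell and 18 of the 27 T cell genes fell. At 800 against 400 cGy, where 9.97% fell, it was 22 and 24. Cr2 did not follow that course: its change was -0.08 ± 0.10 at 300 against 0 cGy (adjusted p = 0.549), -1.04 at 400 against 300 and -1.83 at 800 against 400 cGy. In B10.BR at 500 against 300 cGy, where 0.928% of features fell, 19 of the B cell and 14 of the T cell genes fell, with medians of -0.70 and -0.53, and Cr2 changed by -1.04.

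The B cell count stayed between 9 and 21 falls under the alternatives not fitted on the 6 arrays alone, except with spike-in scaling (2) and with the arrays that lack Y-linked signal (4). The T cell count fell to 0 with spike-in scaling, to 2 with those arrays and to 3 to 5 when replicate 2 or 3 at 300 cGy or any replicate at 400 cGy was left out, and was 5 with only the 12 BALB.K arrays or the deposited matrix, 6 with the exocrine covariate, 7 with Y-linked signal as a block or in row 1 of slide 3, 8 with cyclic loess and 21 with median scaling. The list medians were below 0 in every alternative, from -0.83 to -0.46 for B cells and from -0.65 to -0.28 for T cells.

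Some genes of red cell formation, already low at 300 cGy, fell further. Klf1, the master transcription factor of erythroid cells, was at -2.54, -1.81 and -1.95 at 400 cGy, against -1.22, -0.40 and -1.42 at 300 cGy (-1.09 ± 0.29, adjusted p = 0.0403). The groups did not overlap, and unirradiated arrays lay between 4.92 and 5.22. Ahsp, the chaperone of free alpha-globin, was at -1.22, -0.80 and -0.83 at 400 cGy, against -0.17, 1.38 and 0.03 at 300 cGy (-1.37 ± 0.37, adjusted p = 0.0415), and replicate 2 at 300 cGy stood above the others. Car1, a carbonic anhydrase of red cells, fell by 1.19 ± 0.24 and Tfr2, a transferrin receptor of erythroid precursors, by 1.1 ± 0.21 (adjusted p = 0.014 and 0.00969). The call of Klf1 ended when any single replicate at 400 cGy was left out.

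These were single members of their lists. Of 9 erythroid transcription factors and receptors 1 fell, and Gata1 was at 0.03 ± 0.26. Of 5 globin and chaperone genes 1 fell, of 10 genes of heme synthesis 0 passed in limma (0 higher and 2 lower at an unadjusted p under 0.05), and of 17 genes of the red cell membrane Ermap fell (-0.90 ± 0.23). Its other 2 probes did not pass, and 1 of them lay in the other direction (0.30 ± 0.15 and -0.82 ± 0.26). Sptb, the beta spectrin of the red cell skeleton, rose by 1.0 ± 0.24 (adjusted p = 0.0295), and was the only member of these lists to rise.

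Cell cycle genes were low already. Of 38 proliferation genes 0 rose and 4 fell, while 36 of 38 had a change below 0 (median -0.32, with 1 higher and 18 lower at an unadjusted p under 0.05). The 4 act at the entry into S phase: Mcm2 and Mcm5 of the replicative helicase, the cyclin gene Ccne1 and the polymerase clamp Pcna. Mcm2 was at 0.61, 0.52 and 0.40 at 400 cGy, against 1.09, 1.13 and 1.40 at 300 cGy (-0.70 ± 0.11, adjusted p = 0.00444), with no overlap. The changes of Mcm5 (-0.55 ± 0.11), Ccne1 (-0.46 ± 0.13) and Pcna (-0.36 ± 0.099) were smaller. A second Ccne1 probe did not pass (-0.22 ± 0.20). Mki67, a marker of dividing cells, did not pass (-0.21 ± 0.16, adjusted p = 0.494). The count of falls was 22 with median scaling, 18 within slide 3, 11 with slide as a block and 9 without replicate 1 at 300 cGy, against 1 or 2 without any other single array and 0 with spike-in scaling or the arrays that lack Y-linked signal. Of 32 DNA repair genes 0 passed in limma, with 0 higher and 13 lower at an unadjusted p under 0.05 and a median of -0.19, but 17 fell with median scaling, 7 within slide 3 and 5 with slide as a block or without replicate 1 at 300 cGy.

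Of 37 p53 target genes 1 rose and 0 fell, with a median of 0.095 and 7 higher and 2 lower at an unadjusted p under 0.05, while with median scaling 0 rose, 3 fell and the median was -0.12. At 300 against 0 cGy, where 20.7% of all features rose, 27 of the 37 rose. The gene that rose at 400 cGy was Gdf15, a secreted stress cytokine, at 1.08, 0.99 and 1.12 at 400 cGy, against 0.73, 0.13 and -0.06 at 300 cGy (0.79 ± 0.21, adjusted p = 0.0403). The groups did not overlap, but the call ended with median scaling, without replicate 2 or 3 at 300 cGy and without any of the 400 cGy replicates. Cdkn1a, the cell cycle inhibitor p21, was at 1.67, 1.67 and 1.90 at 400 cGy, against 1.35, 1.48 and 1.69 at 300 cGy, and the groups overlapped (0.24 ± 0.099, adjusted p = 0.169). Cdkn1a rose at 800 against 400 cGy by 1.20 ± 0.099 and in B10.BR at 500 against 300 cGy by 0.63.

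Mdm2, which encodes the ligase that degrades p53, had a change of 0.08 ± 0.75, with a standard error set by the spread of other groups. Ccng1 (0.06 ± 0.13), the death effector Bax (-0.18 ± 0.084) and Trp53 itself (-0.06 ± 0.11) did not pass. Of 23 apoptosis regulators 2 rose, both of the BH3-only kind. Bik was at -2.03, -1.97 and -1.93 at 400 cGy, against -2.44, -2.85 and -2.55 at 300 cGy (0.64 ± 0.13, adjusted p = 0.0132). Hrk was above background on no 300 cGy array, so that its limma call (adjusted p = 0.0318) rests there on signal within background. By the bound, which carries no error, it was at least 1.89-fold higher at 400 cGy. Hrk kept its call in 12 of the 26 other settings in which it could be tested. Dim features rose in general, and whether Hrk rose beyond them was not tested. Neither the call of Bik nor that of Hrk remained without replicate 2 at 300 cGy or 3 at 400 cGy.

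Of 29 macrophage genes 1 rose and 0 fell. Mertk, a receptor for the engulfment of apoptotic cells, was at 3.09, 3.31 and 3.56 at 400 cGy, against 2.74, 2.70 and 2.74 at 300 cGy (0.59 ± 0.12, adjusted p = 0.0159). The list had a median of 0.28, with 15 genes higher and 0 lower at an unadjusted p under 0.05, and held 0.574% to 0.667% of the signal at 400 cGy, against 0.489% to 0.514% at 300 cGy. Gpnmb (0.97 ± 0.34, adjusted p = 0.104) and Cd68 (0.32 ± 0.20), both of lysosome-rich macrophages, did not pass. The count of rises was 5 with quantile normalization or within slide 3 and 0 with median scaling, where 1 fell, with spike-in scaling, and without replicate 2 or 3 of either dose.

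Several genes that serve the use of fat as fuel were higher at 400 cGy. Pdk4, the kinase that shuts down pyruvate dehydrogenase in fasting, was at 2.67, 1.72 and 1.81 at 400 cGy, against 0.86, -0.01 and -0.09 at 300 cGy. No arrays overlapped and replicate 1 was the highest of each dose (1.81 ± 0.34, adjusted p = 0.00913), a 3.51-fold difference. Slc25a34, a mitochondrial carrier, was at -0.81, -0.27 and -0.36 at 400 cGy, against -2.25, -2.43 and -1.97 at 300 cGy (1.74 ± 0.16, adjusted p = 2.71e-05). It had been -3.14 to -2.81 in unirradiated mice and lay between -0.86 and -0.44 at 800 cGy.

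Angptl4, a secreted inhibitor of lipoprotein lipase, was at 5.17, 5.73 and 5.85 at 400 cGy, against 4.65, 4.65 and 4.80 at 300 cGy (0.88 ± 0.17, adjusted p = 0.0126). Acot1, an acyl-CoA thioesterase, was at 2.80, 3.05 and 3.13 at 400 cGy, against 2.20, 2.06 and 2.12 at 300 cGy (0.86 ± 0.11, adjusted p = 5.86e-04). The doses were apart for both genes. Cd36, a fatty acid receptor, rose by 0.42 ± 0.09 and Cpt1a, which admits long-chain fatty acids to the mitochondrion, by 0.35 ± 0.097, with overlapping arrays for Cpt1a.

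These genes belong to a list of fasting and fatty acid oxidation that was chosen after the values were seen, of which 7 of 24 rose (3.17% of all features rose) and 0 fell, with a median of 0.32 and 13 higher and 0 lower at an unadjusted p under 0.05. The count was 3 with the deposited matrix or only the 12 BALB.K arrays and 4 without replicate 2 or 3 at 400 cGy, and the median was 0.20 without replicate 2 at 300 cGy and 0.098 with median scaling, where 1 gene fell. Acadm, an enzyme of beta-oxidation itself, had a change of 0.08, and Cpt2, a carnitine palmitoyltransferase like Cpt1a, had a change of -0.01. Fasn, the fatty acid synthase, fell (-0.56 ± 0.15, adjusted p = 0.0397), and was the only one of 13 fatty acid synthesis genes to pass. In B10.BR at 500 against 300 cGy Slc25a34 rose by 0.69 (adjusted p = 0.0341), while Pdk4 (0.66) and Angptl4 (0.42) did not pass.

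Fat cells express many of these genes. All 13 adipocyte markers had a change above 0 (median 0.48) and 0 passed, with 0 at an unadjusted p under 0.05 in limma. Adipoq was at 1.18, 0.56 and -0.39 at 400 cGy, against -0.44, -0.97 and 0.38 at 300 cGy, and the groups overlapped. The markers held 0.0443%, 0.0423% and 0.0319% of the signal at 400 cGy, against 0.0283%, 0.0277% and 0.0340% at 300 cGy, and their part in the rises was not tested.

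Glucocorticoid hormones, which rise in fasting and stress, induce Pdk4 too. Of 18 glucocorticoid-induced genes, a list also chosen after the values were seen, 2 rose and 0 fell, with a median of 0.53 and 10 higher at an unadjusted p under 0.05. Besides Pdk4 it was the transcription factor Klf9, at 2.99, 2.42 and 2.51 at 400 cGy, against 2.29, 1.73 and 1.34 at 300 cGy (0.85 ± 0.20, adjusted p = 0.026). Replicate 1 was the highest array of each dose for Klf9, and a second probe did not pass (0.49 ± 0.16). Errfi1 (1.29 ± 0.42), Zbtb16 (1.15 ± 0.38), Ddit4 (0.82 ± 0.30) and Fkbp5 (0.52 ± 0.21) did not pass. The count was 0 with the deposited matrix or only the 12 BALB.K arrays, and 1 without replicate 2 or 3 at 300 cGy or 1 or 3 at 400 cGy. It was 4 with spike-in scaling, 5 with the arrays that lack Y-linked signal and 6 with slide as a block or without replicate 1 at 300 cGy. Within slide 3, with the exocrine covariate or with Y-linked signal as a block it was 8.

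Sterol genes went the other way. Of 25 genes of sterol synthesis and uptake, again chosen after the values were seen, 0 rose and 9 fell, with a median of -0.24 and 1 higher and 13 lower at an unadjusted p under 0.05. Sqle, squalene epoxidase, was at 0.08, 0.27 and 0.27 at 400 cGy, against 0.85, 1.59 and 1.28 at 300 cGy (-1.03 ± 0.15, adjusted p = 0.0022). Idi1, an isomerase early in the pathway, was at 1.39, 1.45 and 1.6 at 400 cGy, against 1.75, 2.49 and 2.27 at 300 cGy (-0.69 ± 0.15, adjusted p = 0.0161). Replicate 1, the array on slide 2, was the lowest at 300 cGy for both, and the doses were apart.

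Cyp51, a demethylase late in the pathway, fell by 0.65 ± 0.17, Fdps by 0.56 ± 0.12 and Hsd17b7 by 0.53 ± 0.10. The synthase Hmgcs1 (-0.24 ± 0.13) did not pass. In B10.BR at 500 against 300 cGy the list's median was 0.03, and Sqle changed by -0.04. The count of falls was 0 with spike-in scaling, 1 with the deposited matrix, only the 12 BALB.K arrays or without replicate 2 or 3 at 300 cGy, 2 to 4 without a replicate at 400 cGy and 18 with median scaling.

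SREBP proteins drive these genes from sterol regulatory elements together with the factor NF-Y, which binds the CCAAT box. Promoters in RefSeq (GRCm38.p6, 250 bases before to 50 after the start) were found for 17 of the 25 genes. CCAAT, on either strand, was present in at least 1 promoter of 16 of the 17, all but Acat2, against 41.1% of 27025 genes counted in the same way, and in all 5 of the fallen genes that had one. The exact sequence TCACNCCAC, a form of the sterol regulatory element, was present on either strand in 1 of the 17, Hmgcs1, against 1.44% of all. Variants of it were not searched, so that a window without a match may still hold an element. The promoters of 2 genes that fell and of Hmgcs1, which did not pass, are shown 5′ to 3′ on the gene's strand, with CCAAT or its complement ATTGG and the element TCACNCCAC in capitals. The matches are descriptions of these windows and not measured binding.
Cyp51 (chr5:4104648-4104947, minus strand): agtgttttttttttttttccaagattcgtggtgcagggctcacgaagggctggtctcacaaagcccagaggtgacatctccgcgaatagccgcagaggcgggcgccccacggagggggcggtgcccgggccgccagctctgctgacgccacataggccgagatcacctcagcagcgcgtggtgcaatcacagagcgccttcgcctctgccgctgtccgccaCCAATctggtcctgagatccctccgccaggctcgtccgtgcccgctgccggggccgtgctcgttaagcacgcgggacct
Idi1 (chr13:8885356-8885655, plus strand): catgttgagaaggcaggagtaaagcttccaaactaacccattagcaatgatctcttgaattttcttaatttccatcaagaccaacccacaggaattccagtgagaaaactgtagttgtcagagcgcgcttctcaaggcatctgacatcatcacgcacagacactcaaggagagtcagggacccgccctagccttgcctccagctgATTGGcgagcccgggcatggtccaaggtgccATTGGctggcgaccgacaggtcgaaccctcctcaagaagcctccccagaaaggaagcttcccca
Hmgcs1 (chr13:119690101-119690400, plus strand): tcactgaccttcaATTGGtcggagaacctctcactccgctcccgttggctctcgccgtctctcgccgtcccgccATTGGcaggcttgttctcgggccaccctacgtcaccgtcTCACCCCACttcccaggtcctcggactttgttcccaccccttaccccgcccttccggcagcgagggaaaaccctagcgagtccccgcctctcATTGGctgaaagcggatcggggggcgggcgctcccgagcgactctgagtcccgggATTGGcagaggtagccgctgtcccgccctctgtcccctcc

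Some contractile and matrix genes were lower at 400 cGy than at 300 cGy. Acta2, the actin of smooth muscle and myofibroblasts, was at 3.77, 3.33 and 3.22 at 400 cGy, against 4.40, 4.14 and 4.55 at 300 cGy (-0.93 ± 0.17, adjusted p = 0.00735). In unirradiated spleens it was at 2.88, 3.32 and 3.40, and at 800 cGy at 4.41, 4.49 and 4.22. The 400 cGy arrays thus lay below the doses on either side of them, and the rise at 800 against 400 cGy passed (0.94 ± 0.17, adjusted p = 8.4e-04). All 3 of the 800 cGy arrays lay in row 2 of slide 3, so that dose and row cannot be told apart between 400 and 800 cGy. They all had Y-linked signal and held 0.218% to 0.901% of exocrine pancreas signal, whose part in the differences was not tested.

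The same order of doses held for Col1a1 (-0.55 ± 0.14) and Col3a1 (-0.56 ± 0.13), chains of fibrillar collagen, and Serpinh1 (-0.63 ± 0.098), the collagen chaperone. Their rises at 800 against 400 cGy were 0.94, 1.12 and 1.22. Calponin Cnn1 (-0.66 ± 0.15) and the myosin light chain Myl9 (-0.43 ± 0.12) fell with Acta2, 3 of 15 contractile genes chosen after the values were seen, while Myh11 was at 0.03 ± 0.23. The contractile count was 1 with slide as a block, with only the 12 BALB.K arrays, without replicate 3 at 300 cGy or 2 or 3 at 400 cGy and within slide 3, where 1 gene also rose, 0 in row 1 of slide 3 and with spike-in scaling, and 6 with median scaling. Of 32 stromal and endothelial genes 3 fell and 2 rose (4 and 0 with median scaling, 0 and 0 with spike-in scaling). Only 1 fell with the deposited matrix or only the 12 BALB.K arrays. The falls were also 1 without replicate 2 or 3 at 300 cGy or 1 or 3 at 400 cGy. Col1a1 kept its call in 9 of the 28 other settings and Col3a1 in 18. Among the genes that rose was Pdgfra, a receptor of fibroblasts (0.54 ± 0.10, adjusted p = 0.0114). The largest fall that the rule names was of Matn4, a matrix protein, at -1.41, -1.84 and -1.77 at 400 cGy, against -0.52, 0.66 and -0.24 at 300 cGy (-1.64 ± 0.32, adjusted p = 0.0116). The collagenase Mmp13 (-1.01 ± 0.20) and Igfbp2, which binds insulin-like growth factors (-1.04 ± 0.21), fell as well.

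**Figure D4:**
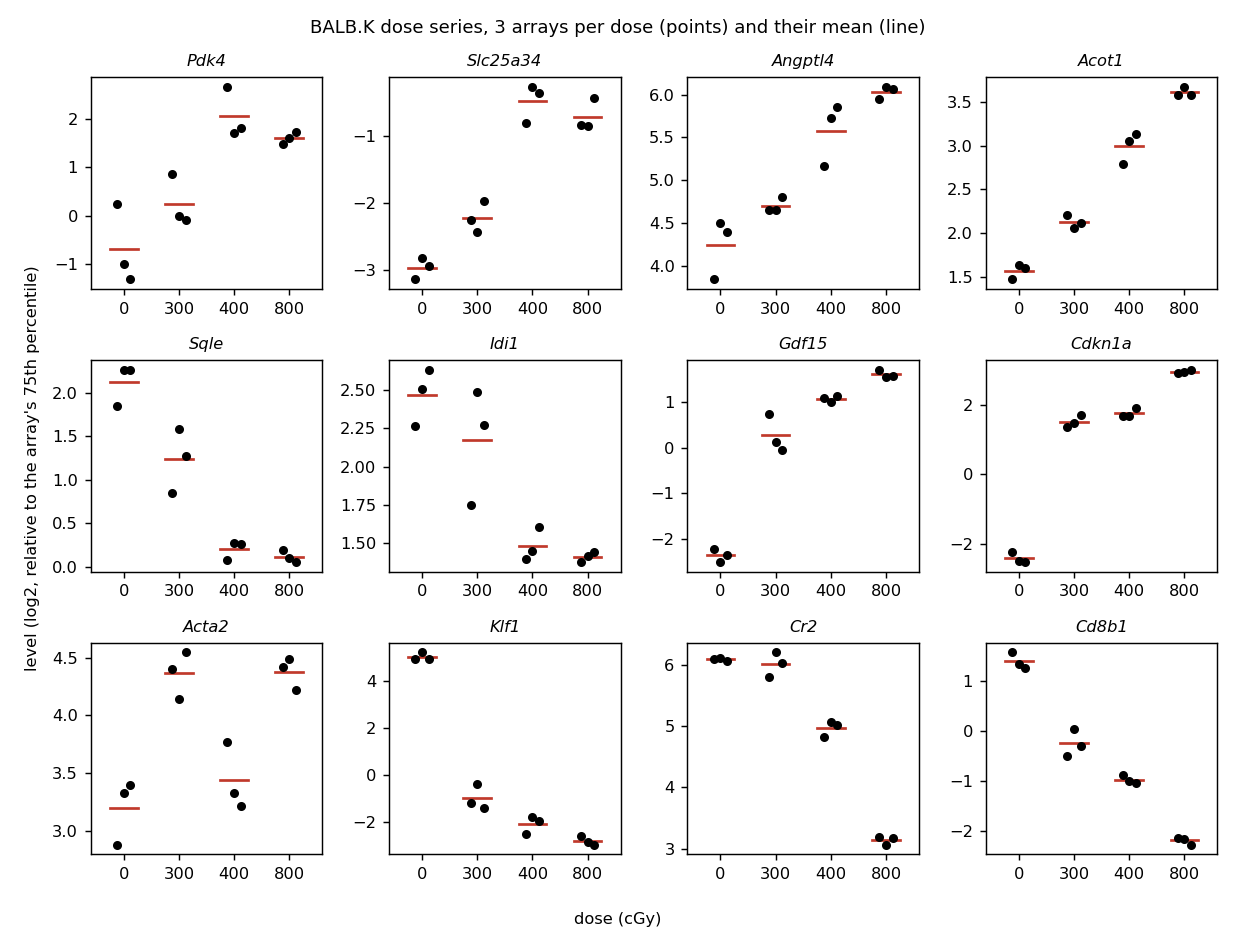
Levels of 12 genes (y axis, log2 relative to the array's 75th percentile) on the 3 BALB.K arrays at each of 0, 300, 400 and 800 cGy (x axis), with points for arrays and lines for means. Slc25a34 and Sqle step between 300 and 400 cGy and lie close together at 400 and 800 cGy, Acta2 is lower at 400 than at 300 or 800 cGy, and Cr2 is level to 300 cGy and lower beyond.

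Large falls outside these lists were of Cpm, a membrane carboxypeptidase (-1.13 ± 0.11, adjusted p = 2.71e-05), Dapl1 (-1.11 ± 0.13, adjusted p = 4.13e-04), Lbhd2 (-1.17 ± 0.20), Tmem108 (-1.08 ± 0.19), Snap91 (-0.97 ± 0.26), Slc25a21 (-1.29 ± 0.35) and Smim6 (-1.13 ± 0.29). A second Tmem108 probe gave 0.09 ± 0.11, in the other direction. Of the other settings in which each could be tested, Slc25a21 kept its call in 9 of 27, Smim6 in 10 of 26 and Snap91 in 15 of 27. Their weakest log2 changes over those settings were -0.30, -0.32 and -0.46. Cpm was at -0.56, -0.24 and -0.21 at 400 cGy, against 0.64, 0.85 and 0.89 at 300 cGy, and in B10.BR its change was -1.14.

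Among the lists with no gene past the test were the interferon response (35 genes, median -0.14, 0 higher and 4 lower at an unadjusted p under 0.05), neutrophils and their precursors (26 genes, median -0.19, 0 and 3), megakaryocytes and platelets (23 genes, median 0.27, 5 and 0) and the acute phase (14 genes, median 0.20, 2 and 0). In these lists Ifit3 (-0.14 ± 0.19), S100a8 (-0.43 ± 0.25), Pf4 (0.07 ± 0.17) and Saa3 (1.28 ± 0.71) did not pass. Matn1, one of the largest rises at 300 against 0 cGy (4.99), was at 0.20, -0.10 and 0.16 at 400 cGy, against -0.54, -0.45 and -0.41 at 300 cGy (0.56 ± 0.17, adjusted p = 0.0685). Single genes passed in the lists of inflammatory cytokines, Ccl9 (0.45 ± 0.11), of oxidative stress, the plasma glutathione peroxidase Gpx3 (0.99 ± 0.23), and of the respiratory chain, Cox7a2 (-0.48 ± 0.12).

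**Figure D5:**
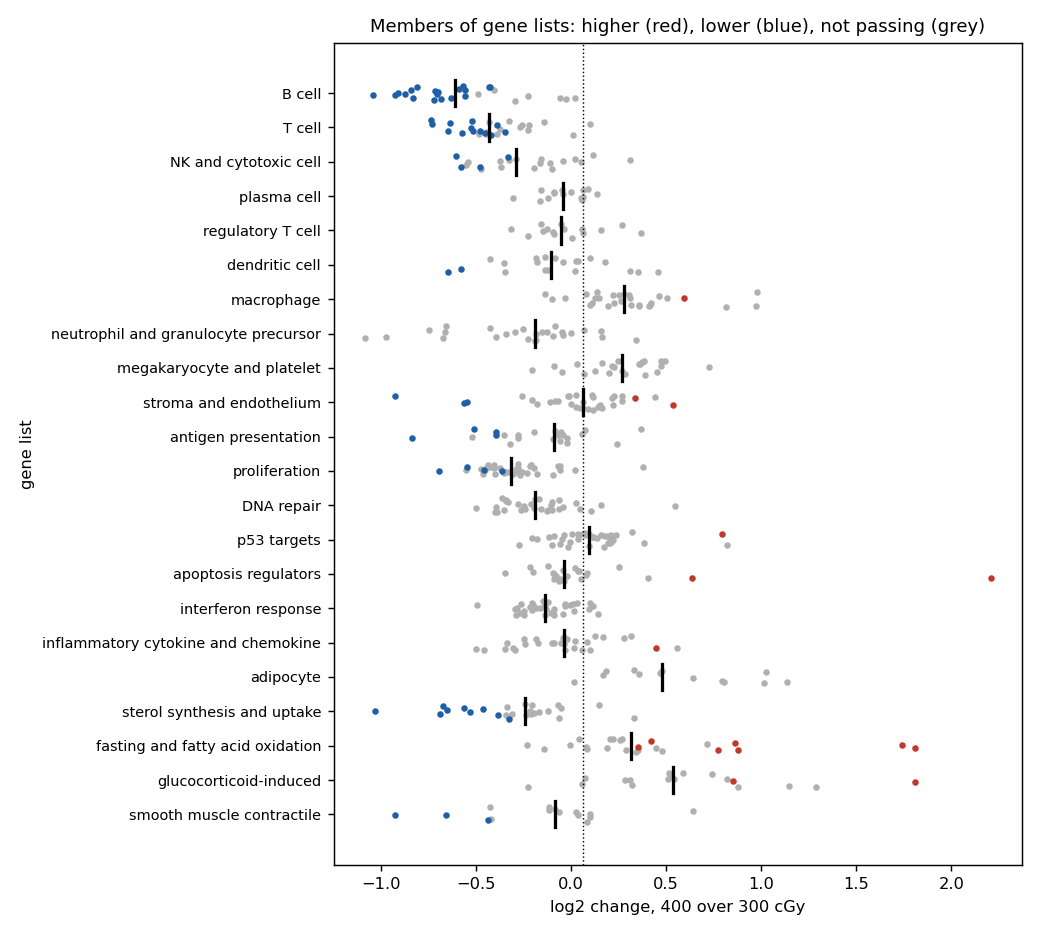
Log2 change of each member (x axis, 400 over 300 cGy) of 22 gene lists (y axis), with red points for members that rose, blue for members that fell, grey for those that did not pass, a black bar at the list's median and a dotted line at the median of all features (0.063). B cell, T cell and sterol genes lie to the left with many blue points, and red points are most frequent among the fasting genes (7 of 24).

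The step in BALB.K was set against the step from 300 to 500 cGy in B10.BR, which covers a wider range of dose. In B10.BR 474 features passed (1.61%), 200 higher (0.677%) and 274 lower (0.928%). The test of the difference between the steps passed for 3 of 29521 features (0.0102%), with 3583 at an unadjusted p under 0.05. Serpinh1 and Shisa6 fell in BALB.K and did not pass in B10.BR. The steps differ both in strain and in size, which cannot be told apart in this test. The strains also lay mostly on different slides, and with slide as a block 23 features passed.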

How the data were processed

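RNA of 24 spleen pools was hybridised to one-colour Agilent mouse arrays. The deposited scanner files hold probe intensity in arbitrary units, from Agilent Feature Extraction 10.5.1.1 per the submitters' processing notes, and per the file headers their processed signal has the background removed and is detrended within an array. A table of log2 values centred by the authors was also deposited, by a normalization not given in the sources used here, and served only as one of the alternatives.

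Processed signals were converted to log2 and lowered by the array's 75th percentile, without the spots marked as outliers. Of 55681 probes, the 42307 that were well above background on all 3 arrays of some group were used. Each gene was represented by its brightest probe on average, for a total of 29521 features, of which 19815 have a RefSeq symbol. Accessions named 26413 probes, symbols 3859 and synonyms 735, and 24674 have the file's own name. There were no saturated spots and no identical arrays.

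Group means over the 24 arrays were fitted with limma 3.58.1 (R 4.3.3, files read with the data.table package, 1.17.8), with empirical Bayes moderation and two-sided p-values adjusted by Benjamini-Hochberg over all features at 0.05. The number of arrays limits the precision. For probes never above background at a dose, the fold is a bound, taken after raising that dose to the lowest level above background on each array. It comes from group means under the main scaling and carries no error, and other settings can give smaller changes. In a test on simulated data for 400 against 300 cGy (29521 features), 30 of 100 genes with a log2 change of 0.5 and 65 of 100 with a change of 1 were found, and unchanged genes were 7.77% of the calls.

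The comparison, the lists and the rule for named genes were chosen with earlier results of these data known, so that none of them is independent evidence. The rule takes 15 rises and 15 falls, the largest among called genes that have a symbol, lie above background on all arrays of a dose and do not overlap between doses. It adds up to 4 called members per list, and 21 genes whether called or not. Part of them are given, and some genes are not reported here. Lists of sterol, fatty acid, fasting, glucocorticoid, contractile and chemosensory genes, and the 15 largest rises above a level of -2, were chosen after the values were seen.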

Additional observations from a re-analysis of the deposited data

Results flagged for a closer look

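The change in BALB.K at 400 against 300 cGy differed from the change in B10.BR at 500 against 300 cGy for 3 features, by an interaction term in limma (adjusted p = 0.0302 for each). Serpinh1, the collagen chaperone, was at 4.38, 4.31 and 4.37 in BALB.K at 400 cGy, against 4.91, 5.13 and 4.92 at 300 cGy. In B10.BR it was at 5.49, 5.34 and 5.08 at 500 cGy, against 5.18, 4.94 and 4.91 at 300 cGy, so that the difference between the changes was -0.92 ± 0.14. Shisa6, of a family of transmembrane proteins, was lower at 400 cGy in BALB.K (-0.68) and at 0.37 in B10.BR, a difference of -1.05 ± 0.16.

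The other feature is a probe that the files name only by a region of chromosome 2 on the reverse strand. It was at -4.52, -4.29 and -4.26 in BALB.K at 400 cGy, against -5.19, -5.24 and -5.48 at 300 cGy, and its difference between the changes was 1.53 ± 0.22. The doses did not overlap in either strain for this probe and for Shisa6. With slide as a block 23 features passed this test, and without single arrays 0 to 31.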

How the results depend on the processing

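The comparison was repeated with 28 other settings, 4 of them (cyclic loess, only the BALB.K arrays without Y-linked signal, only row 1 of slide 3 and only features above a level of -2) chosen after seeing the data. The count of 1410 became 5167 with median scaling, 661 with spike-in scaling, 520 with the deposited matrix and 554 with only the 12 BALB.K arrays. It was 2176 with slide as a block, 572 with the exocrine level as a covariate and 774 with cyclic loess. Within slide 3 it was 4097, of which 820 rises and 389 falls were among the 1410. The arrays that lack Y-linked signal (replicates 2 and 3 at 0, 300 and 400 cGy) gave 829. Of those, 289 rises and 36 falls were among the 1410. With only the 6 arrays in the fit 2 features passed, neither of them among the 1410. A replicate block on those arrays gave 0. Leaving out 1 array gave 254 to 2184, with 254 without replicate 3 and 287 without replicate 2 at 300 cGy, 435, 289 and 279 without replicates 1, 2 and 3 at 400 cGy, and 2184 without replicate 1 at 300 cGy, which lay on another slide. The count was within 1.5 times under the other settings, and no feature was called in opposite directions in any of the 28. The cause of these shifts was not tested.

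Whether replicate numbers pair the pools was not settled. Residuals of same-numbered arrays correlated at 0.22, 0.0016 and 0.053, and replicate 2 at 400 cGy correlated best with replicate 3 at 300 cGy (0.26). Replicate 1, with Y-linked signal at both doses, correlated at -0.21 to -0.082 with arrays of another number at the other dose. With the replicate block on the 6 arrays 0 features passed in limma (5828 at an unadjusted p under 0.05), and 1477 with a block within strain on 24 arrays. Of 87 named genes that passed, 10 kept their call in each of the 26 settings not fitted on the 6 arrays alone, where they could be tested. These were Acot1, Cpm, Cr2, Dapl1, Defb48, Dnah2, Gm4956, Lbhd2, Ndrg2 and Slc25a34. The dim Defb48 could be tested in only 24 of the 26, and its log2 change went down to 0.46.

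The difference between the steps gave 1811 features with median scaling, 5 with quantile normalization, 23 with slide as a block and 0 to 31 with 1 array left out. Signs turned only for genes that did not pass. With median scaling they were Mdm2 (-0.14), Ccng1 (-0.16), Gata1 (-0.19) and Pf4 (-0.15), with spike-in scaling Trp53 (0.089) and Ifit3 (0.0098), and with normexp Gata1 (-0.056). Ccng1 was at -0.090 with slide as a block and within slide 3 and at -0.017 with the exocrine covariate. In row 1 of slide 3, which leaves 3 arrays at 400 cGy and 1 at 300 cGy that is assumed to vary like the other groups, Ccng1 was at -0.10, Mdm2 at -0.0063 and Gata1 at -0.017. With 1 array left out Ccng1 ranged from -0.090 to 0.16, Gata1 from -0.19 to 0.22, Ifit3 from -0.36 to 0.056 and Pf4 from -0.090 to 0.20.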

Other observations

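Among features above a level of -2, the largest rises by the same rule, chosen after the values were seen, included genes that are in none of the lists. Ndrg2, a hydrolase-fold protein induced by stress hormones, was at 1.97, 1.88 and 1.91 at 400 cGy, against 1.21, 0.75 and 0.70 at 300 cGy (1.03 ± 0.17, limma adjusted p = 0.00496). Dnah2, a dynein heavy chain of cilia, was at 0.83, 1.09 and 1.22 at 400 cGy, against 0.22, -0.24 and -0.11 at 300 cGy (1.09 ± 0.17, adjusted p = 0.00396). The doses were apart for both. Grem1, an antagonist of bone morphogenetic proteins (0.96 ± 0.26), Cyp21a1, the steroid 21-hydroxylase of the adrenal cortex (0.91 ± 0.16), Sult1a1, a phenol sulfotransferase (0.85 ± 0.17), and Mapt, the microtubule protein tau (0.87 ± 0.20, with 2 other probes that did not pass), rose as well. Cyp21a1 fell at 800 against 400 cGy (-0.79).

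Below that level the largest rises were of genes with little signal. Of the 15 largest rises 14 had a level under -5. Gm10639 was at -5.72, -1.22 and -4.44 at 400 cGy, against -6.71, -7.75 and -8.92 at 300 cGy, where it was above background on no array. Its bound was 6.15-fold, with replicate 2 at 400 cGy far above the others. Over the other settings its log2 change ranged from 1.38 to 5.51. Its other probe gave 1.13 ± 0.54 and did not pass. By the same bound, without error, Defb48, a defensin, was 2.05-fold higher, Sstr2, a somatostatin receptor, 1.46-fold and Hamp, the iron hormone hepcidin, 1.25-fold. Their smallest log2 changes over the other settings were 0.46, 0.33 and 0.27.

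Chemosensory receptor genes, which belong to nose and tongue, were read as a set of dim features. Of 582 olfactory, vomeronasal and taste receptor features 36 rose and 0 fell, with a median change of 0.43, against 3.17% of all features that rose. The list's median level was -5.35. Of all features with levels from -6 to -4, 4.87% rose, and below -6 it was 3.98%, with median changes of 0.28 and 0.39. By the bound Olfr1329 was 1.44-fold and Olfr641 2.05-fold higher, with smallest log2 changes of 0.38 and 0.44 over the other settings. The list's median was 0.16 with quantile normalization and 0.094 with cyclic loess, and 0 to 62 rose with 1 array left out.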
